A study of Rattus norvegicus with 15 samples.

Results

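Cobalamin (vitamin B12) and folate uptake was followed through 8 genes, Cubn, Amn, Lrp2, Tcn2, Slc46a1, Slc19a1, Folh1 and Mtr. Members were taken by name: every non-control probe whose gene name in the array files is one of these 8 was kept and read apart from the others, which gave 9 of the array's 41012 probes, 2 of them for Slc46a1 and 1 for each other gene, or 8 of 17338 genes named on the array. Of these 9 probes, 7 were well above background on all arrays of at least 1 group and were tested, while those of Lrp2 and Folh1 were not. The RNA came from the intestine of 15 male rats, 5 in each of 3 groups. Goto-Kakizaki (GK) rats, a nonobese diabetic strain, were operated on at 16 wk of age, and tissue was taken 14 wk postoperation. GK-S-30 rats had Roux-en-Y gastric bypass (RYGB), in which the jejunum is cut and joined to the stomach so that food enters it without bile or pancreatic juice, with a Roux limb (RL) of 30 cm. Their jejunum was cut 16 cm from the ligament of Treitz. Their sample was a 5-cm piece of RL that lay 5 cm from the stomach anastomosis. GK-Sham-PF rats were pair-fed and had a cut 16 cm from the ligament of Treitz that was closed again without rearrangement, and Wistar rats had no operation. Both of these groups gave a 5-cm piece of jejunum, cut 21 to 26 cm beyond the ligament of Treitz. The methods treat it as the stretch that corresponds to the RL piece. GK-Sham-PF and Wistar rats differ in strain, diabetes, operation and feeding at once, so these cannot be told apart in that pair, and GK-S-30 and Wistar rats differ in the bypass as well.

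Dietary cobalamin is bound by intrinsic factor and taken up in the intestine by cubam, the complex of cubilin (Cubn), which binds the ligand, and amnionless (Amn), which anchors cubilin in the membrane and carries it to the brush border. Uptake through cubam is a property of the ileum above all, while megalin (Lrp2) is its partner in the renal proximal tubule. Transcobalamin (Tcn2) carries the vitamin onward in blood. Dietary folate is trimmed to the monoglutamate, in humans by folate hydrolase (Folh1) of the brush border. It enters enterocytes of the proximal small intestine through the proton-coupled folate transporter (Slc46a1), while the reduced folate carrier (Slc19a1) is an anion exchanger found in most cells. Both vitamins meet in methionine synthase (Mtr), which moves a methyl group from folate to homocysteine by way of cobalamin.

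Cubn and Slc46a1 were the members that were lower in RL of GK-S-30 rats than in jejunum of Wistar rats. In limma with Benjamini-Hochberg adjustment over all 27893 tested probes, 3 of the 7 tested member probes (Cubn and both Slc46a1 probes) were called lower and 0 higher in that pair, against 11.8% of all tested probes called lower and 10.9% called higher. Between GK-Sham-PF and Wistar rats 1 member probe, the downstream one of Slc46a1, was called lower and 0 higher, against 4.22% and 3.61% of all tested probes. For GK-S-30 compared to GK-Sham-PF, 0 of 7 were called in either direction, against 2.8% of all tested probes called lower and 3.9% called higher. In that pair 3 of the 7 had an unadjusted p under 0.05 (Cubn, Slc19a1 and the downstream Slc46a1 probe), against 5743 of all 27893 tested probes. A one-way model with Tukey's correction that was not adjusted over probes passed 2 of them, Cubn and Slc19a1. Of the 27848 probes in that model it passed 1853 as higher and 2006 as lower. The median log2 difference over the 7 probes was -0.17, -0.08 and -0.25 in the pairs GK-Sham-PF against Wistar, GK-S-30 minus GK-Sham-PF and GK-S-30 against Wistar, beside -0.001, -0.03 and -0.03 over all tested probes. The 3 pairs share groups, so their values for a gene are not independent of each other.

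**Figure D1:**
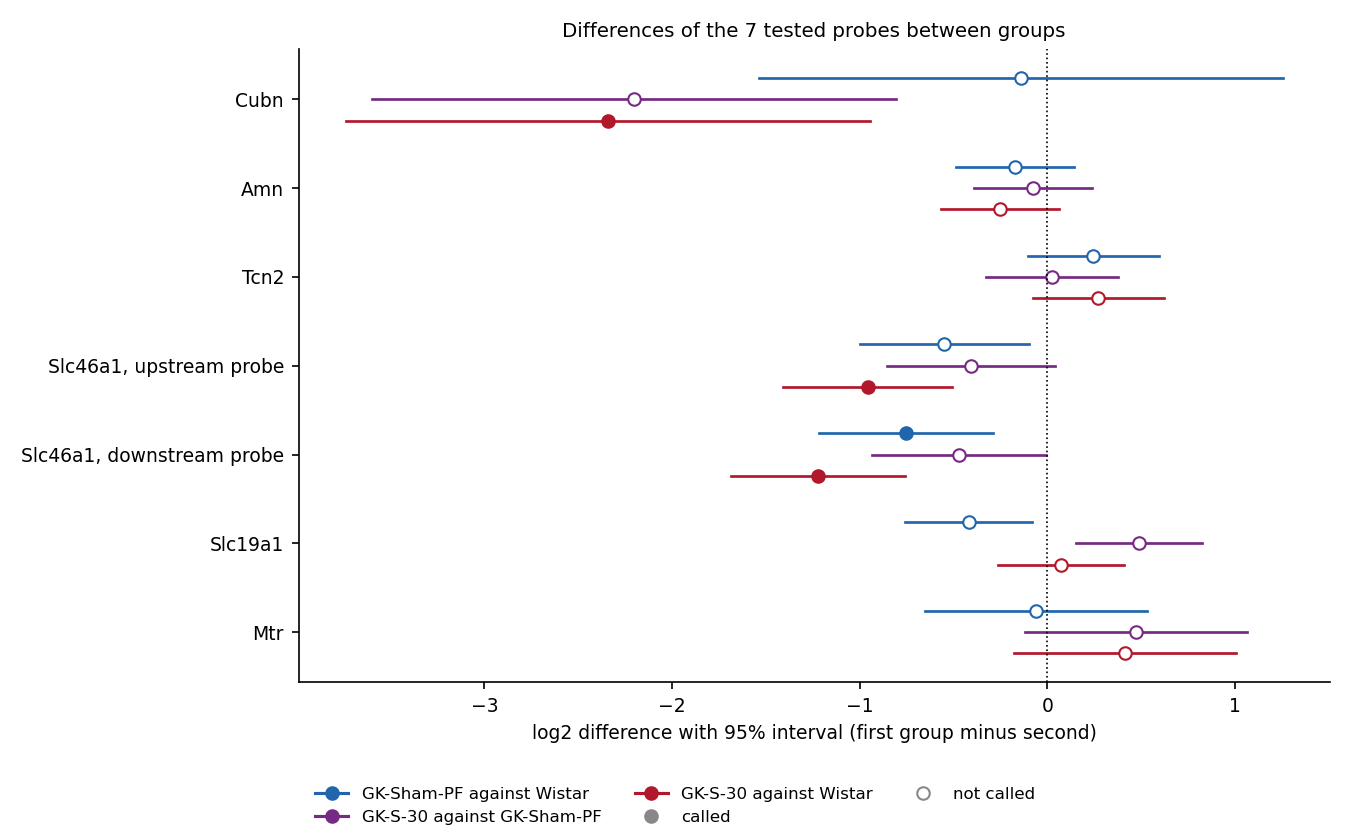
Log2 differences between groups for the 7 tested probes, 3 pairs each, with 95% intervals from the limma fit (horizontal axis, first group minus second). Filled points passed the adjusted threshold of 0.05; they are Cubn (-2.34) and both Slc46a1 probes (-0.96 and -1.22) for GK-S-30 against Wistar, and the downstream Slc46a1 probe (-0.75) for GK-Sham-PF against Wistar.

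The probes that carry these differences are shown so that a reader can see which stretch of each transcript was measured. Positions are those of the array annotation in rn4. The Cubn probe A_44_P405130 lies at chr17:87546312-87546371 on the minus strand and starts at base 10772 of the annotated transcript, toward its 3′ end. The Slc46a1 probes lie at chr10:64576670-64576729 (A_42_P734649, upstream, from base 273) and chr10:64582112-64582171 (A_44_P352951, downstream, from base 1485), both on the plus strand. Whether a position is in an exon or a UTR was not looked up, because no rn4 gene annotation was used here. All letters are in lower case because no part of a probe is singled out, and of the downstream probe the first 30 of 60 bases are given.
Cubn, whole probe: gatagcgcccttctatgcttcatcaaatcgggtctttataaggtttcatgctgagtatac
Slc46a1, upstream, whole probe: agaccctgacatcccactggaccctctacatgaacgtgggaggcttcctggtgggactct
Slc46a1, downstream, first bases: tctctaaggacagtactcactttggaaacg

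Each rat was measured on 1 array with 1 dye, and values are given as log2 of the quantile-normalized intensity, so a difference of 1 is a doubling. The share of probes well above background ran from 66.7% to 74.8% over the arrays. The dimmest arrays were GK-Sham-PF replicate 5 and Wistar replicate 3, with 75th percentiles of the processed signal of 208.4 and 206.6 against 301.9 to 357.2 on the others. Arrays were hybridized on 4 slides, named A to D here: slide A held 4 Wistar arrays, slide B 1 of Wistar with 3 of GK-Sham-PF, slide C 2 of GK-Sham-PF with 2 of GK-S-30, and slide D the other 3 of GK-S-30. No slide held both Wistar and GK-S-30 arrays, so that difference cannot be seen within a slide. Epithelial markers were present throughout: all 11 probes of 9 genes, Epcam and Vil1 among them, were well above background on every array, and Epcam averaged 14.86, 14.76 and 14.81 in the Wistar group, GK-Sham-PF group and GK-S-30 group.

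Cubn, the receptor that binds intrinsic factor with cobalamin, was read at 13.11, 12.39, 12.45, 12.76 and 13.63 in Wistar replicates 1 to 5. In GK-Sham-PF rats it was read at 12.71, 13.74, 12.65, 12.63 and 11.89. In GK-S-30 rats it was read at 7.84, 9.42, 12.20, 11.56 and 11.58. All GK-S-30 arrays lay below all Wistar arrays, and only GK-S-30 replicate 3 (12.20) lay above the lowest GK-Sham-PF array (11.89). The share of all tested probes on which 2 groups do not overlap was not counted. The group means were 12.87 ± 0.51, 12.73 ± 0.66 and 10.52 ± 1.83 (SD, n = 5 each). GK-S-30 was lower than Wistar by a log2 difference of -2.34 (SE 0.66, 95% interval -3.74 to -0.95, adjusted p = 0.0181), that is, at 19.7% of the Wistar level. Against GK-Sham-PF the difference was -2.20 (95% interval -3.60 to -0.81), or 21.7% of that level, with an adjusted p of 0.0577 that missed the threshold. GK-Sham-PF and Wistar differed by -0.14 (95% interval -1.54 to 1.26, adjusted p = 0.951). All 3 intervals and p-values rest on 1 spread shared by the groups. That spread is below the SD of GK-S-30 (1.83) and above those of the other groups (0.51 and 0.66). The intervals with GK-S-30 may therefore be too narrow, and that of GK-Sham-PF against Wistar too wide.

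The Cubn level varied more from rat to rat than that of almost any other tested probe. Its SD within groups was 1.16, above that of 99.8% of tested probes, whose median was 0.26. In GK-S-30 rats the lowest and highest arrays differed 20.5-fold, against 2.36-fold in Wistar and 3.61-fold in GK-Sham-PF rats. The spread in GK-S-30 followed the slides: replicates 1 and 2 on slide C averaged 8.63 and replicates 3, 4 and 5 on slide D averaged 11.78, a gap of -3.15. The slide and the individual rats cannot be told apart there. Slide C held both GK groups, and within it the difference of GK-S-30 from GK-Sham-PF was -3.63 (means 8.63 and 12.26, 2 rats each). With slide as a fixed block the log2 difference was -3.63 for GK-S-30 minus GK-Sham-PF (adjusted p = 0.00806) and -3.70 for GK-S-30 minus Wistar (adjusted p = 0.0490). Slides A and D held 1 group each, so their arrays do not enter these estimates. The first is the same slide C difference again. The second adds to it the GK-Sham-PF minus Wistar difference within slide B (-0.07), which held 1 Wistar array. Without the GK-S-30 arrays of slide C, an alternative chosen after the data were seen, the log2 difference from Wistar was -1.08 with an adjusted p of 0.0570. Single arrays moved the size of the difference as well. Without GK-S-30 replicate 1 it was -1.67 from Wistar (adjusted p = 0.0261) and -1.53 from GK-Sham-PF (adjusted p = 0.0863), and over all fits that left out 1 array it ran from -2.76 to -1.67 from Wistar, with the call kept in each (adjusted p up to 0.0460). From GK-Sham-PF it ran from -2.62 to -1.53 (adjusted p up to 0.133) and passed in 2 of 15 fits, without GK-S-30 replicate 3 (-2.62, adjusted p = 0.0284) and without GK-S-30 replicate 4 (-2.46, adjusted p = 0.0486).

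**Figure D2:**
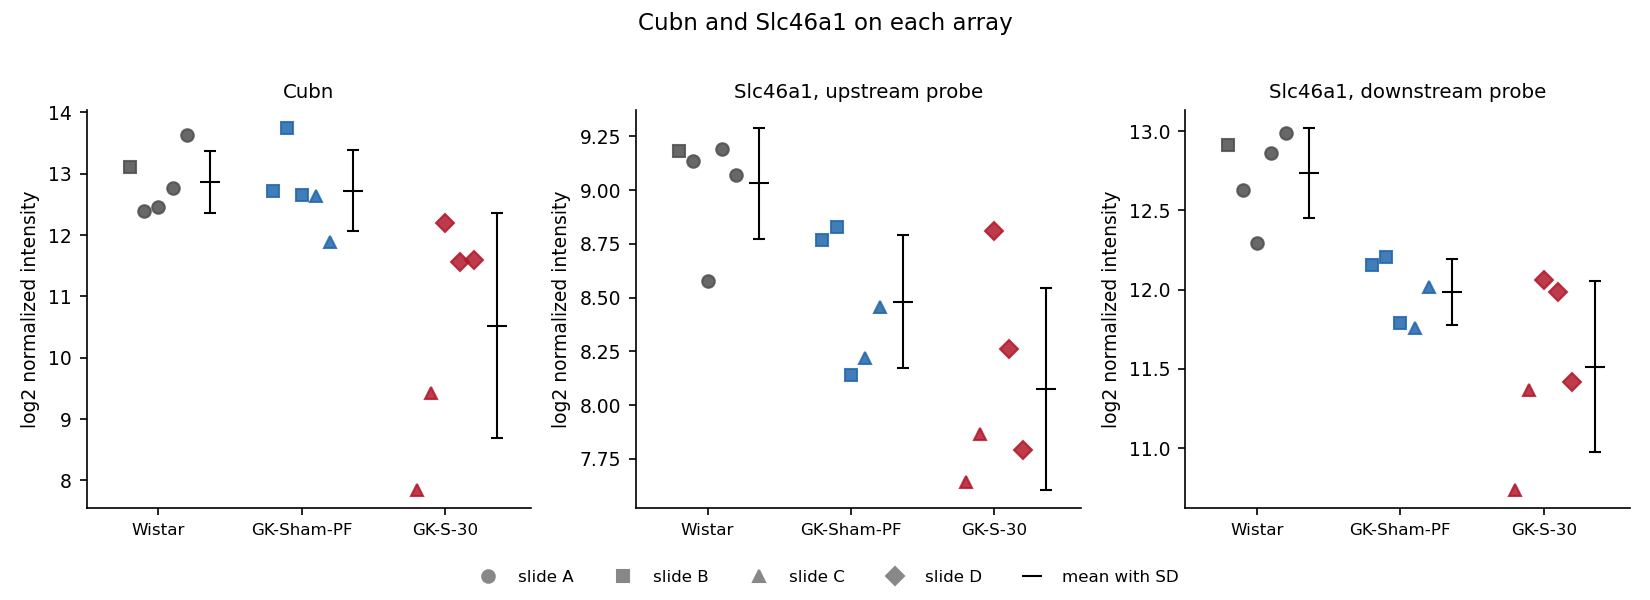
Log2 normalized intensity of Cubn and of both Slc46a1 probes on each of the 15 arrays, by group, with the slide as the marker shape and the group mean with SD in black. Cubn in GK-S-30 falls into 2 arrays of slide C (7.84 and 9.42) and 3 of slide D (11.56 to 12.20), and the downstream Slc46a1 probe has all Wistar arrays (12.29 to 12.99) above all arrays of the other groups.

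Markers of other cells were read beside Cubn. The 9 smooth muscle probes, all well above background in every group, had a summed level of 27350 to 47590 in Wistar, 25510 to 52000 in GK-Sham-PF and 85820 to 112400 in GK-S-30 rats. Of the 9, 4 (Actg2, Cnn1, Des and Tagln) were called higher in GK-S-30 than in either other group, and 5 were not called. Over all tested probes, 10.9% were called higher and 11.8% lower for GK-S-30 minus Wistar. For GK-S-30 minus GK-Sham-PF these shares were 3.9% and 2.8%. Against GK-Sham-PF and Wistar, Myh11 differed by -0.0085 and 0.03 on 1 probe and by 0.83 and 0.61 on the other. Mylk differed by -0.08 and -0.23 on 1 probe and by 0.30 and 0.03 on the other, and Lmod1 by 0.40 and 0.34. The sum gives most weight to the brightest probes. The summed level of the 11 epithelial probes was 484400 to 585200, 493800 to 623900 and 572200 to 663000 in the same order, with 2 of 11 called higher in GK-S-30 minus GK-Sham-PF (1 probe each of Krt18 and Krt19), 3 higher for GK-S-30 minus Wistar (both of Krt18 and that of Krt19) and 0 called lower in any pair. The mean of the epithelial probes was 15.05 and 14.99 on the 2 GK-S-30 arrays with the lowest Cubn and 14.89 to 14.99 on the other 3. The 8 leukocyte probes, all well above background, summed to 53330 to 69750, 46380 to 61000 and 34020 to 49800, with 4 called lower and 2 higher for GK-S-30 minus Wistar. Of the 5 kidney tubule probes, which would mark another Cubn-expressing tissue, 0 were well above background on all arrays of any group. Fewer cells of a type and less RNA per cell cannot be told apart in such samples. The part of the smooth muscle and leukocyte shifts in the Cubn difference was not tested.

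Of 4 tested probes for markers of the proximal intestine, 1 was called lower and 0 higher for GK-S-30 minus Wistar, and 0 were called in the other pairs. The called probe was of Lct (lactase, an enzyme of the proximal brush border), which was also lowest on GK-S-30 replicate 1. Its probe A_44_P328028 was read at 6.90, 8.77, 9.33, 9.12 and 8.26 in GK-S-30 rats, against 9.51 to 9.96 in Wistar and 9.31 to 10.06 in GK-Sham-PF rats. It was lower in GK-S-30 than in Wistar rats by -1.24 (SE 0.34, adjusted p = 0.0160), while a second Lct probe had a log2 difference of -0.94 that was not called (adjusted p = 0.239). The other tested genes of that list, Gata4 (0.20) and Cybrd1 (-0.06), were not called in that pair either. Of 7 probes for markers of the distal intestine, 3 were called higher and 0 lower for GK-S-30 minus Wistar, and 2 higher and 0 lower for GK-S-30 minus GK-Sham-PF. Beside both regional lists, the shares of all tested probes called higher and lower were 10.9% and 11.8% for GK-S-30 minus Wistar. They were 3.9% and 2.8% for GK-S-30 minus GK-Sham-PF, and 3.61% and 4.22% for GK-Sham-PF against Wistar. Slc10a2, the ileal bile acid transporter, was 3.43 higher on the log2 scale in GK-S-30 than GK-Sham-PF rats (adjusted p = 1.14e-05) and 1.02 higher than in Wistar rats (adjusted p = 0.0216), and lower by -2.41 in GK-Sham-PF than in Wistar rats (adjusted p = 5.36e-05). Fabp6, the ileal bile acid-binding protein, was higher in GK-S-30 by 1.71 against GK-Sham-PF (adjusted p = 0.0243) and by 2.08 against Wistar (adjusted p = 0.00227). The other distal probe called for GK-S-30 minus Wistar was that of Slc51b (0.65, adjusted p = 0.0145). Not called in that pair were Slc51a (-0.04), both Nts probes (0.02 each) and Pyy (-1.03, adjusted p = 0.0516). Cubn, also known from the ileum, was called lower in that pair, where 3 of the 7 distal probes were called higher.

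By the root mean square difference of centred log2 values over the 15 arrays, the tested probes of other genes most like Cubn were A_44_P311326 and A_44_P311323, both of Cyp2b2, a drug-metabolizing cytochrome P450 of the intestine and liver, at 0.59 each. Probes of the Cyp2b family can bind each other's transcripts, so these 2 are not independent. The first was read at 10.97, 12.21, 14.44, 13.69 and 13.00 in GK-S-30 rats, with a log2 difference of -2.36 from GK-Sham-PF and -2.74 from Wistar, whose sign follows from choosing probes that resemble Cubn. Unlike Cubn, its Wistar arrays were widely spread, with an SD of 1.15. No shared control of these genes was examined.

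**Figure D3:**
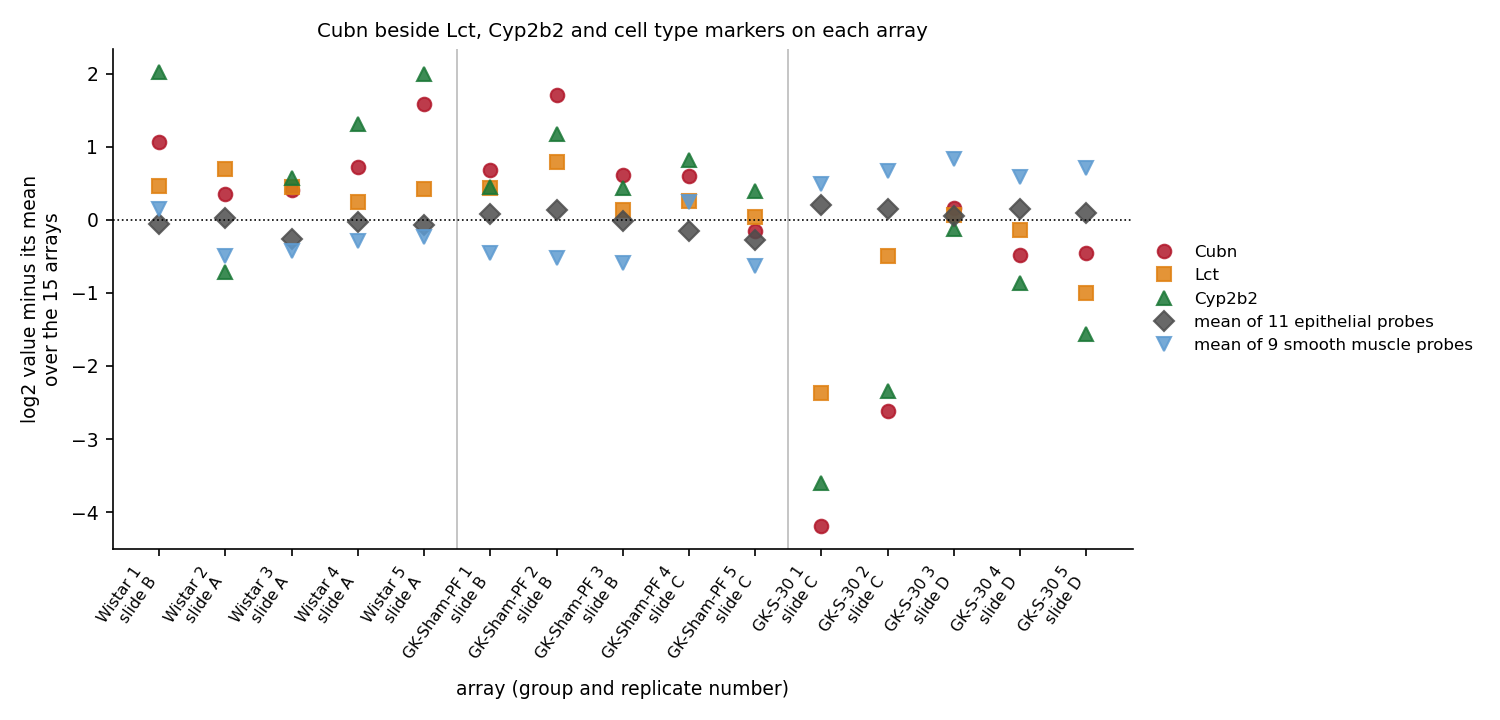
Cubn, Lct, Cyp2b2 and the means of 11 epithelial and 9 smooth muscle probes on each array, each as the log2 value minus its own mean over the 15 arrays. Cyp2b2 is below 0 on all 5 GK-S-30 arrays, and Cubn and Lct on all of these except replicate 3 (uncentred 12.20 and 9.33). On replicates 1 and 2 the uncentred values are Cubn 7.84 and 9.42, Lct 6.90 and 8.77, Cyp2b2 10.97 and 12.21. Lct is lower on replicate 5 of slide D (8.26) than on replicate 2 of slide C. The epithelial mean is not below 0 on replicates 1 and 2, and the smooth muscle mean is above 0 on all 5 GK-S-30 arrays.

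The other cobalamin members showed no called difference. Amn, the membrane anchor of cubilin, had an SD within groups of 0.24, near the median of all tested probes (0.26). It was read at 13.79, 13.82, 14.00, 13.79 and 13.90 in Wistar rats, 13.72, 13.59, 13.75, 13.55 and 13.82 in those of GK-Sham-PF and 13.01, 14.00, 13.86, 13.65 and 13.53 in those of GK-S-30. All 3 groups overlapped, and GK-S-30 replicate 1, the array with the lowest Cubn, also had the lowest Amn. The log2 differences were -0.17 for GK-Sham-PF against Wistar, -0.08 for GK-S-30 minus GK-Sham-PF (95% interval -0.39 to 0.24) and -0.25 for GK-S-30 against Wistar (95% interval -0.57 to 0.06, adjusted p = 0.247). The interval of Amn against Wistar lies above that of Cubn (-3.74 to -0.95), whose product it anchors. Whether the 2 genes differed from each other was not tested.

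Tcn2, the plasma carrier of cobalamin, was read at 11.79, 11.76, 11.10, 11.93 and 11.60 in Wistar rats, 11.85, 11.87, 12.01, 11.91 and 11.76 in those of GK-Sham-PF and 11.42, 12.20, 12.20, 11.88 and 11.82 in those of GK-S-30. The groups overlapped, and the largest of its 3 log2 differences was 0.27 (GK-S-30 against Wistar, 95% interval -0.08 to 0.62, adjusted p = 0.262). Lrp2, the megalin of the kidney, was well above background on 1 of 5 Wistar, 0 of 5 GK-Sham-PF and 2 of 5 GK-S-30 arrays. Its log2 values ran from 1.88 to 4.43 in Wistar, 1.15 to 2.69 in GK-Sham-PF and 2.96 to 3.98 in GK-S-30 rats, at or near the lowest signals counted as well above background (2.82 to 3.74 on the log2 scale, depending on the array). It was not tested and no fold is given.

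Slc46a1, the transporter that brings dietary folate into enterocytes, had lower values in GK-S-30 than in Wistar rats on both of its probes. The upstream probe was read at 9.18, 9.13, 8.58, 9.19 and 9.07 in Wistar rats, 8.77, 8.83, 8.14, 8.22 and 8.46 in those of GK-Sham-PF and 7.64, 7.87, 8.81, 8.26 and 7.79 in those of GK-S-30. The downstream probe was read at 12.91, 12.63, 12.29, 12.86 and 12.99 in Wistar rats, 12.16, 12.21, 11.79, 11.76 and 12.01 in those of GK-Sham-PF and 10.74, 11.37, 12.06, 11.99 and 11.42 in those of GK-S-30. On the downstream probe all 5 Wistar arrays lay above all arrays of both GK groups, and on the upstream probe Wistar replicate 3 and GK-S-30 replicate 3 crossed. As for Cubn, the share of all tested probes without overlap was not counted.

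GK-S-30 was lower than Wistar by -0.96 on the upstream probe (SE 0.21, 95% interval -1.41 to -0.51, adjusted p = 0.00435) and by -1.22 on the downstream probe (SE 0.22, 95% interval -1.69 to -0.76, adjusted p = 0.0009), at 51.5% and 42.8% of the Wistar level. GK-Sham-PF lay between the other groups on both. Against Wistar its log2 difference was -0.55 on the upstream probe (adjusted p = 0.151) and -0.75 on the downstream probe (95% interval -1.22 to -0.29, adjusted p = 0.0467), the latter being the only member call in that pair. GK-S-30 minus GK-Sham-PF gave -0.41 (95% interval -0.86 to 0.04, adjusted p = 0.298) and -0.47 (95% interval -0.94 to -0.01, adjusted p = 0.236). Centred on their own means, the 2 probes differed by a root mean square of 0.20 over the arrays and by at most 0.46 on 1 array.

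The 3 calls of Slc46a1 differed in how far they rested on single arrays and slides. Both calls of GK-S-30 against Wistar passed whichever of the 15 arrays was left out, with adjusted p-values up to 0.0137 upstream and 0.00332 downstream. The call of GK-Sham-PF against Wistar was lost in 11 of 15 such fits, those without Wistar replicate 1, 2, 4 or 5, without any 1 of the 5 GK-Sham-PF arrays, or without GK-S-30 replicate 2 or 5, with log2 differences between -0.81 and -0.69 and adjusted p-values from 0.0572 to 0.118. With slide as a fixed block the difference of GK-S-30 from Wistar was -1.19 upstream (adjusted p = 0.287) and -1.70 downstream (adjusted p = 0.0872), and that of GK-Sham-PF from Wistar was -0.86 downstream (adjusted p = 0.405). Within slide B the downstream probe differed by -0.86 for GK-Sham-PF minus Wistar (3 rats and 1 rat), and within slide C by -0.83 for GK-S-30 minus GK-Sham-PF (2 rats each). The upstream probe gave within-slide differences of -0.60 and -0.58. The estimates with slide as a fixed block rest on these within-slide differences alone.

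The tested probes nearest to the Slc46a1 pattern by the same measure were Cyp2d4 and Abcg8 for the upstream probe (root mean square difference 0.22 each) and Prss30 and Tmem86b for the downstream probe (0.25 each). Cyp2d4 is a cytochrome P450, Abcg8 is a subunit of the sterol exporter of the brush border, Prss30 is a serine protease and Tmem86b a lysoplasmalogenase. Their log2 differences of GK-S-30 from Wistar were -0.77, -0.80, -1.31 and -1.33. These probes were chosen for following Slc46a1 over the same arrays, so differences of that sign follow from the choice and are a description only.

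Slc19a1, the reduced folate carrier, was read at 11.34, 11.31, 11.03, 11.53 and 11.35 in Wistar rats, 11.10, 10.93, 10.88, 10.40 and 11.15 in those of GK-Sham-PF and 11.22, 11.31, 11.34, 11.86 and 11.17 in those of GK-S-30. All GK-S-30 arrays lay above all GK-Sham-PF arrays, and the Wistar arrays overlapped both. How many of all tested probes separate this pair in that way was not counted. The log2 difference of GK-S-30 from GK-Sham-PF was 0.49 (SE 0.16, 95% interval 0.15 to 0.83) with an adjusted p of 0.0795, and that of GK-Sham-PF from Wistar was -0.42 (95% interval -0.76 to -0.08, adjusted p = 0.141). GK-S-30 and Wistar differed by 0.07 (95% interval -0.27 to 0.41). Without both of the dimmest arrays, an alternative chosen after the data were seen, GK-S-30 minus GK-Sham-PF was 0.55 with an adjusted p of 0.0437. With slide as a fixed block it was 0.49 (adjusted p = 0.397). In the 15 fits that left out 1 array it was not called, with adjusted p-values from 0.0614 to 0.165. Slc19a1 and Slc46a1 therefore had estimates of opposite sign in that pair, neither of them called, and whether they differ was not tested.

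Folh1, the brush border enzyme that removes glutamates from dietary folate in humans, was not well above background on any array, with log2 values between 1.31 and 1.63, and was not tested. Mtr, the methionine synthase, was dim but well above background on all 15 arrays. It was read at 4.16, 4.31, 4.08, 4.45 and 3.97 in Wistar rats, 4.20, 4.27, 3.82, 4.03 and 4.35 in those of GK-Sham-PF and 4.19, 3.96, 5.96, 4.50 and 4.42 in those of GK-S-30. A single GK-S-30 array, replicate 3, stood above all others. The log2 difference of GK-S-30 was 0.47 from GK-Sham-PF (95% interval -0.12 to 1.07, adjusted p = 0.367) and 0.41 from Wistar (adjusted p = 0.314). The Mtr probe covers 786 bases of rn4 (chr17:68865825-68866610), more than its 60 bases, as a probe across a splice junction does.

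**Figure D4:**
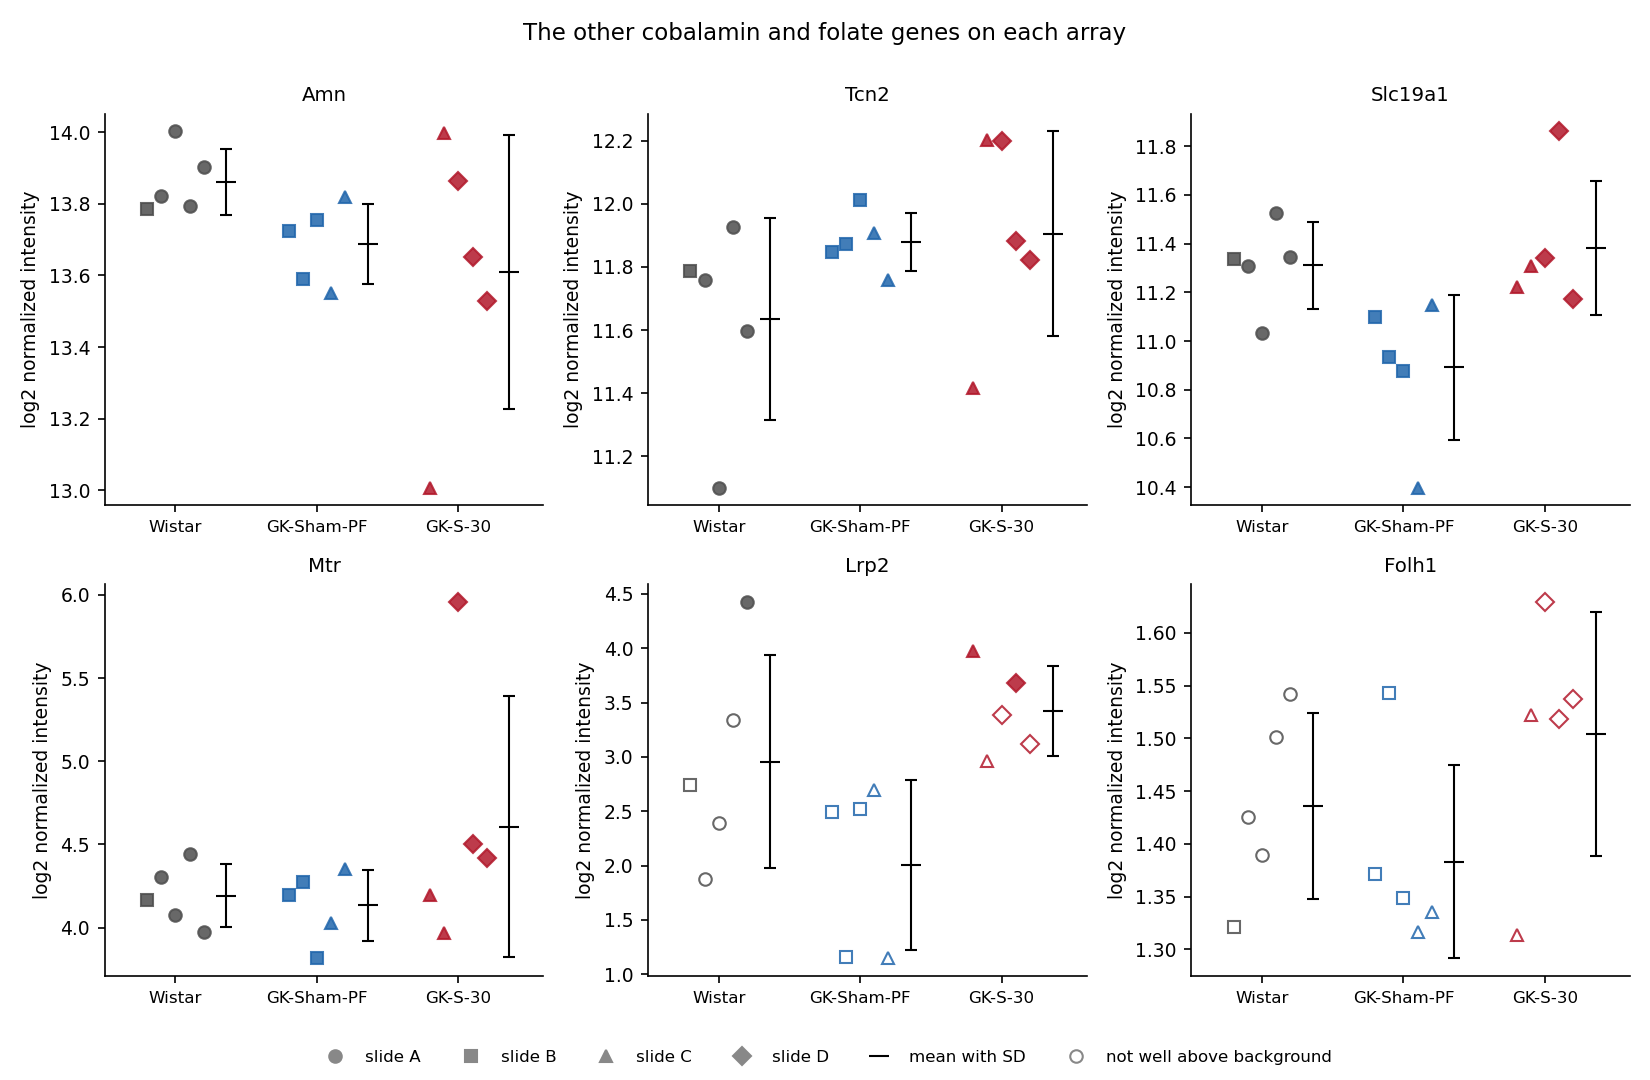
Log2 normalized intensity of Amn, Tcn2, Slc19a1, Mtr, Lrp2 and Folh1 on each array, by group, with the slide as the marker shape, hollow markers for arrays on which the probe was not well above background, and the group mean with SD in black. Vertical scales differ between panels, and Folh1 is hollow on all 15 arrays. Slc19a1 runs from 11.17 to 11.86 in GK-S-30 and from 10.40 to 11.15 in GK-Sham-PF, a difference that was not called.

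Other genes of the same pathways were read from lists. In the cobalamin list (intracellular handling, receptors and related enzymes, 14 of 17 genes with a probe by name) 19 probes were tested. Of these, 1 was called lower in GK-Sham-PF than in Wistar, 0 in GK-S-30 minus GK-Sham-PF and 1, also lower, for GK-S-30 minus Wistar. In GK-S-30 minus GK-Sham-PF 2 had an unadjusted p under 0.05, against 5743 of all 27893 tested probes. The share of all tested probes called lower was 4.22% in the first and 11.8% in the last of these pairs, so the list's counts were near or below the background. Both calls were of 1 probe of Lmbrd1, a lysosomal membrane protein needed for cobalamin to leave the lysosome. That probe, A_44_P451120, averaged 9.61 ± 0.16 in Wistar rats, 6.77 ± 0.10 in those of GK-Sham-PF and 6.90 ± 0.16 in those of GK-S-30 (SD, n = 5 each), a log2 difference of -2.84 (adjusted p = 5.08e-11) and -2.71 (adjusted p = 7.95e-11) from Wistar. A second Lmbrd1 probe, A_43_P15367, differed by -0.30 (adjusted p = 0.215) and -0.14 (adjusted p = 0.503), so the 2 probes of this gene disagree. With normexp background correction the first probe gave -2.04 and -1.93. Whether the strains have the same sequence under it was not tested, so its values may not be differences in transcript level. All 4 probes of Cd320, the cell surface receptor for transcobalamin, had log2 differences between -0.21 and 0.08 with no call in any pair. Intrinsic factor itself (Cblif), a product of the stomach, was not well above background on any array. Abcd4, Mmab and Mmut were not analysed here.

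Folate enzymes and carriers were called in GK-S-30 against Wistar rats about as often as all tested probes. Of 31 tested probes of the folate list (25 genes), 4 were lower and 0 higher in GK-Sham-PF than in Wistar, 1 was lower and 1 higher in GK-S-30 than GK-Sham-PF, and 3 were lower and 4 higher for GK-S-30 minus Wistar. Over all tested probes 4.22% were called lower and 3.61% higher in the first pair, 2.8% and 3.9% in the next, and 11.8% and 10.9% in the last. The values that follow describe single genes. The median log2 difference of the list was -0.0594, 0.14 and 0.21 in these pairs, beside -0.001, -0.03 and -0.03 over all tested probes. Folr1, a folate receptor that takes folate up by endocytosis, averaged 7.41 ± 0.26 in Wistar rats, 6.72 ± 0.47 in those of GK-Sham-PF and 5.76 ± 0.25 in those of GK-S-30 (SD, n = 5 each). It was called lower in GK-S-30 than in either other group, by -0.97 against GK-Sham-PF (SE 0.20, adjusted p = 0.0106) and by -1.66 against Wistar (adjusted p = 3.36e-05). With slide as a fixed block these became -0.58 (adjusted p = 0.413) and -0.998 (adjusted p = 0.387), with Tukey's correction adjusted over probes the first was lost (adjusted p = 0.0634), and with normexp the second was -0.85.

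Slc25a32, the mitochondrial folate carrier, was lower than in Wistar by -0.53 in GK-Sham-PF and by -0.65 in GK-S-30 rats on 1 probe, while its other probe differed by -0.16 and -0.04 and was not called. Aldh1l1, a formyltetrahydrofolate dehydrogenase of the cytosol, was lower by -0.53 and -0.66, and Mthfd1l, a mitochondrial formyltetrahydrofolate synthetase, by -0.65 in GK-Sham-PF rats. Ftcd, which passes histidine-derived one-carbon units to folate, was lower by -1.02 in GK-Sham-PF than in Wistar and higher by 0.93 in GK-S-30 than GK-Sham-PF rats (adjusted p = 0.00682 and 0.0187), and its GK-S-30 mean (5.29) was near that of Wistar (5.39). With normexp both Ftcd calls were lost, at -0.26 (adjusted p = 0.0536) and 0.25 (adjusted p = 0.0729), and the first was also lost when slides were a fixed block (-0.57, adjusted p = 0.731). The second was also lost without GK-Sham-PF replicate 1 (adjusted p = 0.0522), without the GK-S-30 arrays of slide C (0.66, adjusted p = 0.126) and with Tukey's correction adjusted over probes (adjusted p = 0.0996). Without Wistar replicate 1, 4 or 5 or GK-Sham-PF replicate 3, 4 or 5 the Mthfd1l call was lost (adjusted p up to 0.0977), and without Wistar replicate 1, 2 or 4 or GK-Sham-PF replicate 1, 4 or 5 that of Aldh1l1 in GK-Sham-PF (up to 0.0758).

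The 4 folate probes called higher in GK-S-30 than in Wistar were those of Tyms (thymidylate synthase, 0.52, adjusted p = 0.00227), Mthfd1 (a trifunctional folate enzyme, 0.38, adjusted p = 0.0160), Aldh1l2 (the mitochondrial counterpart of Aldh1l1, 0.55, adjusted p = 0.0358) and Shmt2 (mitochondrial serine hydroxymethyltransferase, 0.34, adjusted p = 0.0446). A second Aldh1l2 probe had a log2 difference of 0.95 that was not called (adjusted p = 0.123). Leaving out Wistar replicate 1, 2 or 5 or GK-S-30 replicate 1, 2 or 3 ended the Aldh1l2 call (adjusted p up to 0.0958), and leaving out any Wistar array, GK-Sham-PF replicate 3 or 4, or GK-S-30 replicate 1, 4 or 5 ended that of Shmt2 (up to 0.106). In the methionine cycle list 0 of 17 tested probes were called in GK-Sham-PF against Wistar, beside 4.22% of all tested probes called lower and 3.61% higher. In GK-S-30 minus GK-Sham-PF 0 were called, beside 2.8% and 3.9%. An unadjusted p under 0.05 was found for 2 and 1 of the 17 in these pairs, against 5276 and 5743 of all 27893 tested probes. In GK-S-30 against Wistar 1 was called lower and 1 higher, a share below the 11.8% and 10.9% of all tested probes. Gnmt, a glycine methyltransferase, was lower by -1.23 (adjusted p = 0.00209, or -0.46 with normexp) and Cbs, which takes homocysteine into transsulfuration, was higher by 0.55 (adjusted p = 0.0122). Of the 17 calls in these lists over the 3 pairs, 4 also passed with slide as a fixed block: both of Lmbrd1, that of Ftcd in GK-S-30 minus GK-Sham-PF and that of Gnmt, whose log2 difference was then -2.32. In that fit differences from Wistar rest on the 1 Wistar array of slide B.

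**Figure D5:**
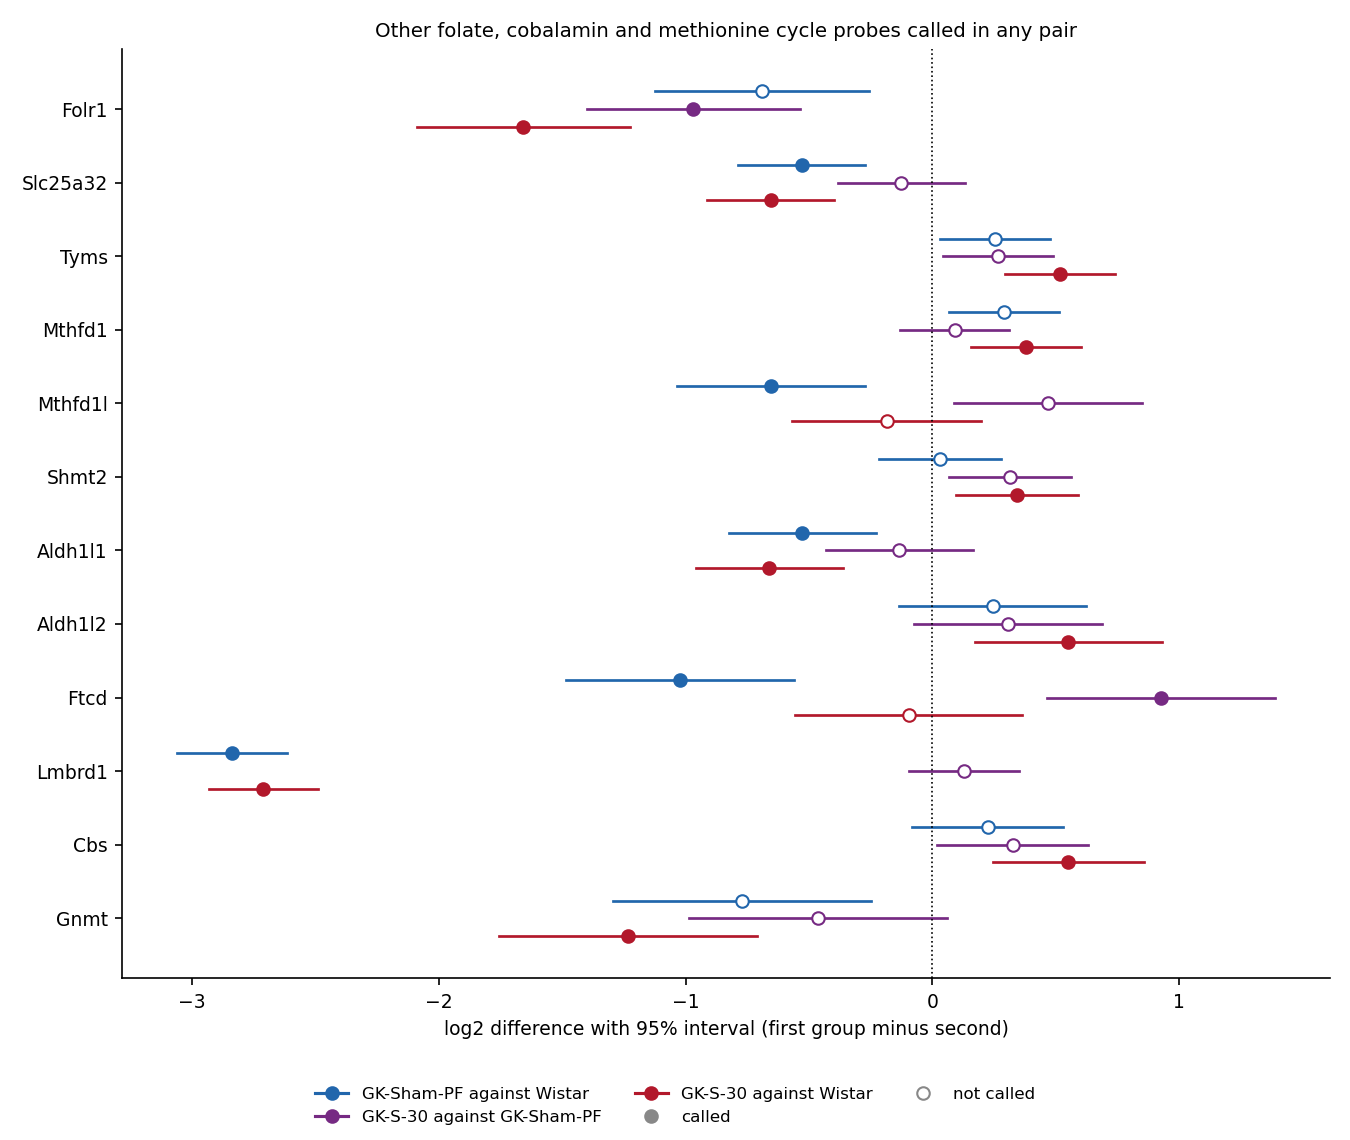
Log2 differences with 95% intervals (horizontal axis, first group minus second) for the 12 probes of the folate, cobalamin and methionine cycle lists that were called in at least 1 pair; filled points were called. Lmbrd1 differs from Wistar in both GK groups (-2.84 and -2.71) and lies near 0 between them, Folr1 is lowest in GK-S-30 (-1.66 against Wistar), and further probes of Lmbrd1, Slc25a32 and Aldh1l2 that were not called are not drawn.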

How the data were processed

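Tissue RNA of 15 rats was measured on Agilent whole rat genome arrays, 1 array a rat, and groups were taken from the sample records. The authors deposited each array's intensity values from Agilent Feature Extraction (10.7.3.1 in the headers, rn4 annotation): the processed signal, which is background-subtracted within the array and not normalized between arrays. They also deposited log2 values that had been quantile-normalized between arrays.

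Each array had 45018 spots, 43379 of them non-control, which belong to 41012 probes. Controls and outlier spots (52 to 109 an array) were left out, repeated spots were averaged, and log2 processed signals were quantile-normalized, as in the methods, with limma (3.58.1, under R 4.3.3), reading with data.table (version 1.17.8) and drawing with matplotlib (3.10.9). Quantile normalization forces 1 distribution on all arrays, so values are relative. No spot was saturated. Tests were kept to the 27893 probes that all arrays of 1 group or more had well above background. The 15 arrays entered 1 limma model (lmFit, contrasts.fit, eBayes) with the group as its only term and 1 spread per probe shared by the groups. For each pair, Benjamini-Hochberg adjusted p-values over the tested probes were read at 0.05 ("called"). The median standard error of a log2 difference was 0.16. Gene symbols were updated through a RefSeq table (GRCr8; 17541 probes by accession, 3098 by symbol, 539 by synonym), 1325 kept the file's name and 18509 had none. The fitting procedure was tested on simulated data.

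Named are all member probes, called probes of the cobalamin, folate and methionine cycle lists, marker genes, and for each called member probe the 2 tested probes of other genes most like it. The members and lists were chosen with earlier results of these data known, and 1 gene of the folate list is not reported here and is in none of the list's counts. Replicate numbers name different rats, and same-numbered arrays of different groups correlated between -0.28 and 0.19 in their deviations from the group means, so no pairing was used. Alternatives were another scaling, normexp background correction, the deposited log2 values, other filters, slide or replicate blocks, Tukey's correction as in the methods, and leaving out arrays.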

Additional observations from a re-analysis of the deposited data

Results flagged for a closer look

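In 4 of 57 sets of 5 arrays looked at (the tested member probes and the called probes of the pathway lists, in each group), 1 array lay apart from the other 4 by a gap that took up more than 0.71 of the whole range, where about 2.85 would be seen at 1 in 20 by chance. Among the members, the upstream Slc46a1 probe had Wistar replicate 3 low at 8.58, with the nearest array at 9.07 (gap share 0.801), and that array is 1 of the 2 dimmest. Slc19a1 had GK-S-30 replicate 4 high at 11.86, with the nearest at 11.34 (gap share 0.755). Mtr had GK-S-30 replicate 3 high at 5.96, with the nearest at 4.50 (gap share 0.731).

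Among the folate enzymes, Aldh1l2 had GK-Sham-PF replicate 5, the other dim array, high at 6.64 with the nearest at 6.0 (gap share 0.796). The causes of these gaps were not tested.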

How the results depend on the processing

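The 3 calls of GK-S-30 against Wistar (Cubn and both Slc46a1 probes) were made under most alternatives run. Slide as a fixed block left 1 (Cubn), and Tukey's correction adjusted over probes and the fit without the GK-S-30 arrays of slide C left 2 (both Slc46a1 probes). Leaving out each array in turn gave 3 to 3 called probes in this pair, 0 to 1 in GK-Sham-PF against Wistar and 0 to 1 in GK-S-30 minus GK-Sham-PF. The 1 call of GK-Sham-PF against Wistar became 0 with normexp background correction, with no filter on dim probes, when slides were a fixed block, with the replicate block (a paired fit, adjusted p = 0.117) and with Tukey's correction adjusted over probes. The 0 calls of GK-S-30 minus GK-Sham-PF became 1 (Cubn) with 1 probe per named gene (adjusted p = 0.0473) and when slides were a fixed block, 1 (Slc19a1) without the dimmest arrays, and 2 (Cubn and Slc19a1) with Tukey's correction not adjusted over probes. The replicate block changed no other member call.

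Signs turned for some member estimates that were not called. With slide as a fixed block, GK-S-30 minus GK-Sham-PF was -0.0229 for Tcn2 and -0.11 for Mtr, and Mtr against Wistar was -0.18, where the estimates of Mtr had been 0.47 and 0.41. Tcn2 in GK-S-30 minus GK-Sham-PF was -0.0036 without the dimmest arrays. Leaving out each array in turn, the ranges crossed 0 for Cubn (-0.40 to 0.0673) and Mtr (-0.11 to 0.0202) in GK-Sham-PF against Wistar, for Amn (-0.17 to 0.0724) and Tcn2 (-0.0485 to 0.15) in GK-S-30 minus GK-Sham-PF, and for Slc19a1 (-0.0489 to 0.13) in GK-S-30 against Wistar. Calls over all tested probes fell from 2184, 1869 and 6352 to 414, 382 and 454 when slides were a fixed block. With slide as a random block, 1111, 1156 and 3279 were called higher and 1283, 859 and 3581 lower. The consensus correlation of arrays on 1 slide was then -0.029. In the fixed-block fit the arrays of slides A and D, which held 1 group each, do not enter the estimates. For GK-S-30 against Wistar the standard error went from 0.22 to 0.44 for the downstream Slc46a1 probe and from 0.66 to 0.84 for Cubn. The difference of that Slc46a1 probe was -1.22 in the main fit and -1.70 with the block. Other causes of these changes were not tested. Lrp2 and Folh1 are limited by signal over background, and 5 rats a group limit the precision of every value.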
